A study of Sus scrofa with 3 samples.

Results

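The Hedgehog pathway was described through 7 genes, the ligand DHH, the receptor PTCH1, the signal transducer SMO, the inhibitor SUFU and the transcription factors GLI1, GLI2 and GLI3. Each was found by its symbol in the deposited table, which held 1 row for each of them among 18730 genes. The table gives the RNA of porcine spermatogonia that carry SSEA4, a glycolipid antigen of the cell surface which the study examined for enriching spermatogonial stem cells. The cells came from 90-day-old pigs and all 3 libraries, named S1, S2 and S3, belong to this 1 population, so no treatment, genotype or second cell population is compared here. Whether each library is a different animal is not in the labels, so a p-value here reflects the spread over these libraries alone, which may be technical.

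In Hedgehog signalling a secreted ligand binds the receptor Patched (PTCH1), which without ligand keeps the membrane protein Smoothened (SMO) inactive. Active SMO, working at the primary cilium in vertebrate cells, frees the GLI transcription factors from SUFU, and PTCH1, HHIP and GLI1 are among the genes that GLI proteins switch on. In the mouse testis the ligand is Desert hedgehog, made by Sertoli cells, and its best known receiving cells are the Leydig and peritubular cells around the tubule.

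Expression is given as FPKM, which scales the fragments of a gene by its length and by the mapped total of the library, so levels of different genes are compared per length. Across the 17949 genes with a value above 0 in at least 1 library, 65.6% lay above the level of 1 FPKM, 28.5% lay below it and 5.94% were not told apart from it (limma on log2(FPKM + 1), adjusted p after Benjamini and Hochberg). Library S3 stood apart: Pearson's r of log2(FPKM + 1) across genes, which are not independent replicates, was 0.997 for S1 with S2, 0.992 for S1 with S3 and 0.993 for S2 with S3. Mitochondrially encoded genes took 57.7%, 59.3% and 52.7% of the summed FPKM in S1, S2 and S3. All measured germ line markers lay above 1 FPKM, 9 of 9 germ cell genes and 9 of 9 genes of undifferentiated spermatogonia. The share among all genes tested was 65.6%. Markers of somatic cells were measured as well: 9 of 12 Sertoli genes, 4 of 7 Leydig genes, 11 of 11 peritubular and fibroblast genes, 3 of 5 endothelial genes and 0 of 6 leukocyte genes lay above 1 FPKM. The germ line lists and the peritubular and fibroblast list passed in full, so lying above 1 FPKM does not identify the cells. In bulk RNA of this kind, fewer cells of a type and less RNA per cell cannot be told apart.

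The receptor was abundant and the ligand close to undetected. Of the 7 genes, 6 lay above 1 FPKM and DHH lay below it, beside 65.6% above and 28.5% below among all genes tested, and none of the 7 was in the class of 5.94% not told apart. The order of the mean levels was PTCH1, GLI3, SUFU, SMO, GLI1, GLI2 and DHH. PTCH1 exceeded 90.5% of the genes tested, and DHH exceeded 2.87%. The other genes lay between these ends, with GLI3 above 66.7% of genes, SUFU above 55.7%, SMO above 54.8%, GLI1 above 40.5% and GLI2 above 34.7%.

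**Figure D1:**
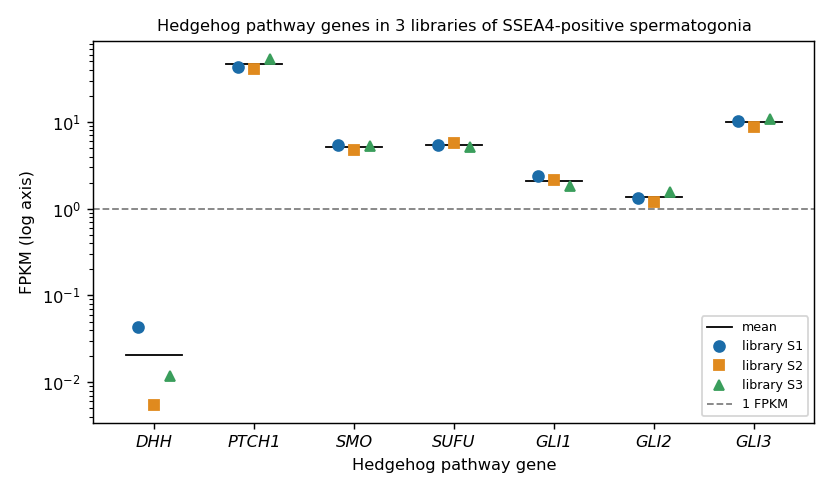
FPKM (log axis) of the 7 Hedgehog genes in the libraries S1, S2 and S3, with the mean as a bar and 1 FPKM as a dashed line. PTCH1 lies at 41.4 to 53.7 FPKM in every library, and DHH at 0.00538 to 0.0437 FPKM.

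**Figure D2:**
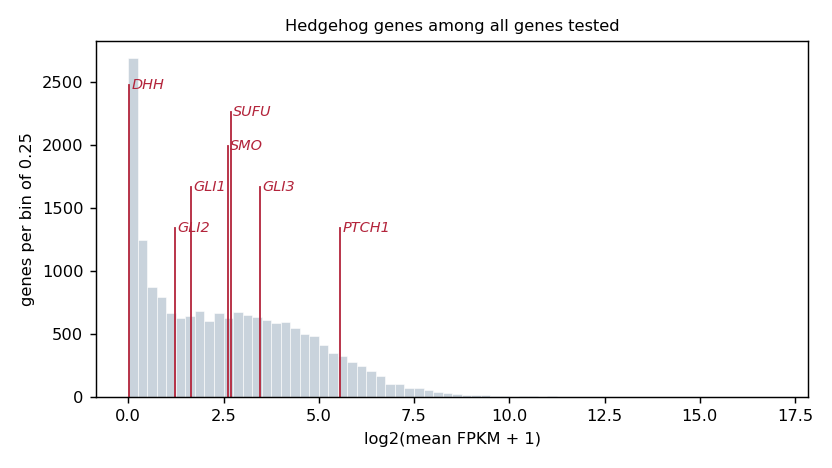
Number of genes per bin of log2(mean FPKM + 1) over the 17949 genes tested, with the 7 Hedgehog genes marked by vertical lines whose heights carry no value. DHH lies in the lowest bin and PTCH1 in the upper tail, above 90.5% of genes.

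Ligand transcripts were scarce. In S1, S2 and S3 the ligand gene DHH (ENSSSCG00000000188) had 0.0437, 0.00538 and 0.0118 FPKM, a mean of 0.0203 ± 0.0205 (SD, n = 3). All libraries lay far under 1 FPKM, at a difference of -0.97 from that level in log2(FPKM + 1) (limma, adjusted p = 3.37e-07). The added 1 shrinks differences of a gene near 0, so this value understates how far DHH lay under 1 FPKM. The same shrinking applies to the spread behind the p-value, while in FPKM the spread between libraries was as large as the mean. The depth behind such low values is unknown, so it cannot be said whether the libraries differed in DHH. DHH is also used as a marker of Sertoli cells. Of the 12 Sertoli genes 9 lay above 1 FPKM, among them CLU at 228 ± 100.1 FPKM, VIM at 102 ± 32.9, and the transcription factors WT1 at 42.8 ± 2.50, SOX9 at 15.2 ± 4.58 and GATA4 at 11.5 ± 2.61. GATA1, at 0.0339 ± 0.0136 FPKM, AMH, at 0.377 ± 0.260, and FSHR, at 0.573 ± 0.240, were the 3 below it. AMH and FSHR were not told apart from 1 FPKM once mitochondrial and ribosomal protein genes were removed (limma, adjusted p = 0.744 and 0.196). WT1, SOX9, GATA4 and FSHR were chosen for naming after their values were seen. The other Hedgehog ligands were also low: SHH stood at 0.107 ± 0.00562 FPKM and IHH at 0.115 ± 0.0224, both below 1 FPKM (limma, adjusted p = 5.44e-07 and 8.38e-07).

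Genes that act in making and releasing the ligand were split. DISP1, the membrane protein that releases the lipid-modified ligand, reached 7.67 ± 0.154 FPKM, and SCUBE1, of a family of secreted proteins that help the release, 3.43 ± 0.277. HHAT, the enzyme that adds palmitate to the ligand, stood at 0.554 ± 0.118 and SCUBE3 at 0.763 ± 0.166, both below 1 FPKM (limma, adjusted p = 0.00105 and 0.0325). SCUBE3 was no longer told apart from 1 FPKM when S1 or S2 was left out (adjusted p = 0.173 and 0.167) or after each library was rescaled to the same sum (adjusted p = 0.476). Without mitochondrial and ribosomal protein genes, HHAT and SCUBE3 lay above 1 FPKM, by 0.26 and 0.54 on the log2 scale. Of the 6 measured ligand and release genes other than DHH, 2 lay above 1 FPKM and 4 below, beside 65.6% above and 28.5% below among all genes tested. SCUBE2 was not analysed here.

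PTCH1 (ENSSSCG00000027312), the ligand receptor and itself a target of the pathway, had 43.3, 41.4 and 53.7 FPKM in S1, S2 and S3. The mean was 46.1 ± 6.64 FPKM (SD, n = 3), rank 1712 of the genes tested, and lay above 1 FPKM by 4.55 on the log2 scale (limma, adjusted p = 1.60e-07). S3 was the highest library, and S1 and S2 were close to each other.

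The co-receptors that present the ligand to Patched were also above 1 FPKM. CDON reached 15.0 ± 1.87 FPKM and BOC, its relative, 3.59 ± 0.486, with a CDON to BOC ratio of 4.19 ± 0.268 (SD, n = 3). HHIP, a membrane protein that captures ligand and is induced by the pathway, had 7.57, 6.76 and 11.6 FPKM in the libraries S1 to S3, again highest in S3. LRP2, an endocytic receptor that can bind Hedgehog ligand, stood at 2.71 ± 0.222 FPKM. All 4 measured receptor genes of the list other than PTCH1 and SMO lay above 1 FPKM, beside 65.6% of all genes tested. GAS1 was not analysed here.

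SMO (ENSSSCG00000016569), the membrane protein that Patched holds in check, had 5.39, 4.74 and 5.30 FPKM in the libraries S1 to S3, with a mean of 5.14 ± 0.350. All libraries lay above 1 FPKM, at a log2 difference of 1.62 (limma, adjusted p = 4.30e-06). Per length, PTCH1 exceeded SMO by a factor of 8.03, 8.72 and 10.1 in the same order. On the log2(FPKM + 1) scale the difference was 2.93 ± 0.17 (SD, n = 3), higher in 3 of 3 libraries.

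SUFU (ENSSSCG00000010586), which binds GLI proteins and keeps them inactive, had 5.41, 5.77 and 5.18 FPKM in the libraries S1 to S3. Its mean of 5.46 ± 0.294 FPKM lay above 1 FPKM by 1.69 on the log2 scale (limma, adjusted p = 2.95e-06). SUFU had the smallest coefficient of variation of the 7 genes, at 5.39%, beside a median of 9.34% over the 12340 genes that averaged 1 FPKM or more. That low spread depended on the scaling, since it was 13.6% without mitochondrial and ribosomal protein genes and 8.75% under upper-quartile scaling, where SMO was lower at 3.82%. SUFU and SMO were the only neighbours in the order whose ranges over the libraries overlapped. Their difference was 0.07 ± 0.14 on the log2 scale, with SUFU higher in 2 of 3 libraries (exact two-sided sign-flip permutation test, p = 0.75, adjusted p = 0.75 over 21 pairs).

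Other cytoplasmic regulators of GLI mostly lay above 1 FPKM, at widely different levels. Of 16 measured genes other than SUFU, 15 lay above 1 FPKM, or 93.8% beside 65.6% of all genes, and their median was 16.2 FPKM beside 3.93 for all genes tested. The highest were genes with many roles outside the pathway: PRKAR1A and PRKACA, subunits of the cyclic AMP-dependent kinase that primes GLI proteins for processing, at 179 ± 2.64 and 92.7 ± 10.5 FPKM, the kinase GSK3B at 76.6 ± 8.94, and CUL3, a ubiquitin ligase scaffold, at 72.5 ± 3.55. The lowest of the list were KIF7 and EVC. KIF7, a ciliary kinesin that acts on GLI, stood at 2.66 ± 0.125 FPKM. EVC, a partner of SMO at the cilium base, stood at 0.818 ± 0.0607, the only one of the 16 below 1 FPKM (limma, adjusted p = 0.0303). EVC was not told apart from 1 FPKM when S1 or S2 was left out (adjusted p = 0.0840 and 0.167), nor with a pseudocount of 0.1 (adjusted p = 0.0626), nor among genes averaging 0.5 FPKM or more (adjusted p = 0.0598), nor after the libraries were rescaled to the same sum (adjusted p = 0.855), and it lay above 1 FPKM, by 0.62 on the log2 scale, without mitochondrial and ribosomal protein genes.

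Genes of transport in the primary cilium, which also serve the sperm flagellum, were present. Of 12 measured genes of the list 11 lay above 1 FPKM, or 91.7% beside 65.6% of all genes tested, and their median was 15.4 FPKM beside 3.93. The highest were KIF3A, a motor of transport into the cilium, at 49.2 ± 2.18 FPKM, and the transport particle components IFT172 at 32.3 ± 4.29, IFT122 at 30.6 ± 3.36 and IFT88 at 26.3 ± 1.52. KIF3B stood at 4.05 ± 0.180, and FUZ, needed for building cilia, lay below 1 FPKM at 0.342 ± 0.0445 (limma, adjusted p = 1.63e-05). FUZ was not told apart from 1 FPKM once mitochondrial and ribosomal protein genes were removed (adjusted p = 0.292). OFD1 was not analysed here.

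GLI3 was the leading GLI gene. GLI3 (ENSSSCG00000016763), which in the absence of ligand is processed mostly to a repressor, had 10.4, 8.75 and 10.8 FPKM in the libraries S1 to S3, with a mean of 9.97 ± 1.07. All libraries lay above 1 FPKM, at a log2 difference of 2.45 (limma, adjusted p = 1.02e-06).

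GLI1 (ENSSSCG00000000443), an activator that is itself induced by the pathway, had 2.36, 2.12 and 1.84 FPKM in the libraries S1 to S3. The mean was 2.11 ± 0.261 FPKM, 0.63 above the level of 1 FPKM on the log2 scale (limma, adjusted p = 0.000420). As deposited, S3 was the lowest library for GLI1, while it was the highest for GLI2 and GLI3.

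GLI2 (ENSSSCG00000015733), in mouse the main activator at the start of the response, had 1.32, 1.18 and 1.56 FPKM in the libraries S1 to S3, with a mean of 1.35 ± 0.190. Its log2 difference from 1 FPKM was 0.23 (limma, adjusted p = 0.0193). The call was lost without S1, where GLI2 was not told apart from 1 FPKM (limma, adjusted p = 0.0843).

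Of the summed FPKM of the 3 GLI genes, GLI3 took 73.9% in S1, 72.6% in S2 and 76.0% in S3. GLI1 took 16.8%, 17.6% and 13.0%, and GLI2 9.37%, 9.80% and 11.0%. The order GLI3, GLI1, GLI2 held in each library, and the ranges of the 3 genes did not overlap. The ratio of GLI3 to GLI1 was 4.40, 4.13 and 5.85, and that of GLI1 to GLI2 was 1.79, 1.79 and 1.18, so the margin of GLI1 over GLI2 was smallest in S3. These shares are of RNA, and the table does not tell full-length from processed GLI protein.

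Between neighbours in the order of levels, the difference in log2(FPKM + 1) was 2.10 ± 0.13 for PTCH1 over GLI3, 0.76 ± 0.21 for GLI3 over SUFU, 0.99 ± 0.14 for SMO over GLI1, 0.40 ± 0.22 for GLI1 over GLI2 and 1.20 ± 0.12 for GLI2 over DHH (SD, n = 3 libraries). In each of these 5 pairs the first gene was higher in 3 of 3 libraries and the ranges did not overlap. Which gene came first was set by the means of the same libraries, so this agreement is partly built in. The added 1 shrinks differences that involve a gene near 0. As a ratio of FPKM in S1, S2 and S3, GLI2 over DHH was 30.2, 220 and 132, while PTCH1 over GLI3 was 4.17, 4.73 and 4.99. Over the 21 pairs of the 7 genes, 20 reached p = 0.25, the lowest two-sided value possible with 3 libraries (adjusted p = 0.2625, exact permutation test by sign flips), so no pair could pass a threshold of 0.05.

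The GLIS genes encode zinc finger factors related to GLI, and all 3 were higher than GLI3 in each library, though the ranges of GLIS2 and GLIS3 overlapped that of GLI3: GLIS1 at 19.2 ± 2.75 FPKM, GLIS2 at 12.0 ± 1.07 and GLIS3 at 11.2 ± 0.785. GLIS1 exceeded GLI3 by a factor of 1.88, 1.87 and 2.03 in S1, S2 and S3, and GLIS3 by 1.05, 1.20 and 1.12. The 5 ZIC genes of the same zinc finger class lay below 1 FPKM, from ZIC2 at 0.759 ± 0.135 (limma, adjusted p = 0.0213) through ZIC5 at 0.177 ± 0.0358 to ZIC4 at 0.0262 ± 0.0158. ZIC2 was not told apart from 1 FPKM when S1 or S2 was left out (adjusted p = 0.113 and 0.136), nor after the libraries were rescaled to the same sum (adjusted p = 0.420).

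Genes known as targets of GLI in other tissues were described as a list, since most of them answer to other signals as well. Of 10 measured targets of the list other than PTCH1 and GLI1, 9 lay above 1 FPKM, beside 65.6% of all genes, with a median of 4.69 FPKM beside 3.93 for all genes tested. HHIP at 8.63 ± 2.57 FPKM, SFRP1, an inhibitor of WNT ligands, at 7.98 ± 0.602, the transcription factor MYCN at 7.22 ± 0.392 and the cyclin CCND2 at 6.77 ± 0.690 were the highest. The forkhead factors FOXF1 and FOXL1, of Hedgehog-receiving mesenchyme, were the lowest, with FOXF1 at 2.29 ± 0.249 and FOXL1 at 0.0168 ± 0.00485, below 1 FPKM (limma, adjusted p = 2.35e-07). Among the targets that are also parts of the pathway, PTCH1 was 5.50 ± 0.759 times as high as HHIP per length and 22.4 ± 5.95 times as high as GLI1 (SD, n = 3). BCL2 was not analysed here. Over all 47 measured Hedgehog genes of these lists other than the 7, 40 lay above 1 FPKM and 7 below.

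The 7 genes did not move alike between libraries. With S3 set against the mean of S1 and S2 on the log2(FPKM + 1) scale, PTCH1 was higher by 0.34, GLI2 by 0.19, GLI3 by 0.16 and SMO by 0.06, while SUFU differed by -0.09, GLI1 by -0.19 and DHH by -0.02; the sign turned for SUFU when each library was rescaled to a sum of 1000000, and for SMO and GLI3 without mitochondrial and ribosomal protein genes. The median of all genes averaging 1 FPKM or more was 0.05 on the same measure. It moved to 0.17 under the first of these scalings and to -0.14 under the second. Relative to this median, PTCH1 was higher in S3 by 0.28 as deposited and by 0.21 to 0.30 under the 4 other scalings, and GLI1 differed by -0.24 as deposited and by -0.28 to -0.18. With 1 library against 2, none of these differences has a replicate check.

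HHIP, another inducible ligand-binding gene, was also highest in S3, by 0.57 relative to the same median, and so was CDON by 0.23. GLI1, also a classical target, was lowest there. Of the 6 Hedgehog genes averaging 1 FPKM or more, 3 were highest in S3, a share of 50.0%, which equals the 50.0% of all such genes that were highest in S3. Among the 4 other receptor genes 3 were highest in S3.

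**Figure D3:**
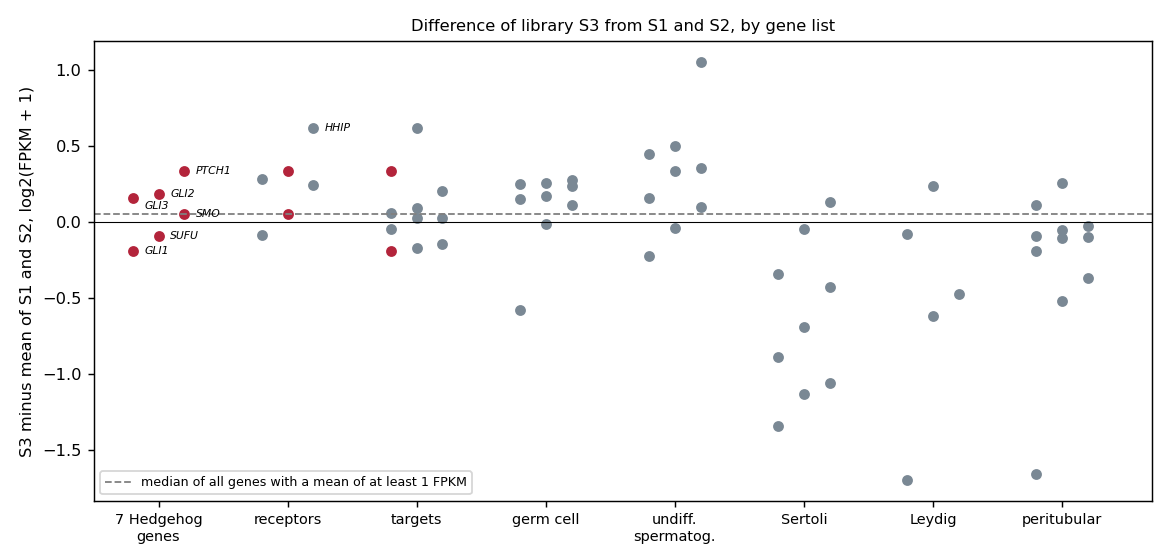
Difference of S3 from the mean of S1 and S2 in log2(FPKM + 1), 1 point for each gene averaging 1 FPKM or more, by list, with the 7 Hedgehog genes in red and the median of all such genes as a dashed line. Horizontal offsets within a list carry no value. PTCH1 lies at 0.34 and GLI1 at -0.19, and most Sertoli and Leydig markers lie under 0.

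Marker levels of other cells moved between the same libraries. The summed FPKM of the 12 Sertoli genes was 552 in S1, 432 in S2 and 261 in S3, that of the 7 Leydig genes was 20.7, 17.4 and 9.30, and that of the 11 peritubular and fibroblast genes was 130, 101 and 87.5. Of the Sertoli genes 9 of 12 were lowest in S3, with a median difference of S3 from S1 and S2 of -0.43 on the log2 scale. The same held for 5 of 7 Leydig genes, with a median of -0.076, and for 6 of 11 peritubular and fibroblast genes, with a median of -0.097. Among all 17949 genes tested, 6077 were lowest in S3, and the median difference was 0.018. Without CLU the Sertoli sum was 227, 198 and 136 FPKM in S1, S2 and S3. Without CYP11A1 the Leydig sum was 8.66, 7.66 and 6.66 FPKM. Without TAGLN the peritubular and fibroblast sum was 92.6, 76.2 and 78.7 FPKM, lowest in S2 rather than S3. The sum over 9 genes of undifferentiated spermatogonia was 218, 201 and 289, and over 9 germ cell genes 1013, 1087 and 1169. NANOS3, the highest of the undifferentiated list by mean, had 50.0, 43.7 and 98.1 FPKM, and no sum was taken without it. Of that list 6 of 9 genes were highest and 2 lowest in S3. Of the Leydig genes, STAR stood at 0.0768 ± 0.0305 FPKM. LHCGR, the receptor for luteinizing hormone, was listed at 0 in S1 and S3 and at 0.0970 in S2. CYP11A1 fell from 12.0 FPKM in S1 to 9.75 in S2 and 2.64 in S3. NR5A1 went the other way, the only 1 of the 7 Leydig genes that was highest in S3. It had 2.92 FPKM there, against 2.38 in S1 and 2.28 in S2. The 5 endothelial genes summed to 20.2, 19.1 and 15.8 FPKM in S1, S2 and S3, and the 6 leukocyte genes to 3.02, 2.75 and 2.04. Of these, 4 of 5 endothelial and 2 of 6 leukocyte genes were lowest in S3. PTCH1 was highest, and GLI1 lowest, in S3, where the full sum of every somatic list was lowest, so the fall was not particular to Sertoli and Leydig genes. The part of these cells in the levels of PTCH1, GLI1 or the other Hedgehog genes was not tested.

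The genes of the Hedgehog lists whose deviations over the 3 libraries lay nearest to each gene, by Euclidean distance in log2(FPKM + 1) among 45 genes averaging 1 FPKM or more, were GSK3B and BOC for PTCH1, at 0.05 and 0.08, FOXM1 and NUMB for SMO, at 0.01 and 0.04, and LRP2 and RPGRIP1L for SUFU, at 0.04 and 0.07. For GLI1 they were EVC2 and CCND1, at 0.05 and 0.06, for GLI2 IFT52 and SPOP, at 0.01 and 0.02, and for GLI3 PRKACA and GRK2, at 0.05 and 0.06. With 3 libraries these distances describe the libraries only.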

How the data were processed

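Per the labels' protocols, directional libraries were built after removal of ribosomal RNA, the authors used cutadapt 1.9.3 for trimming and HISAT2 2.0.4 for alignment, and Cuffdiff gave the FPKM of each Ensembl gene. The protocols name susScr3, and the submitters' processing notes also Sscrofa11.1, so coordinates are left out. The deposited FPKM values are in a table whose name says TPM, and its columns sum to 859642, 855276 and 781871. Within a library both units give the same ratios between genes. Whether counting used strand is not given in the sources used here.

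The column names do not tell which labelled sample is which, so the columns were used as libraries of 1 group. Symbols came from the table or, for 737 rows without one, from a reference table of Ensembl names, which matched 14749 IDs. Rows whose 2 symbols differ (334) were left out of the lists. Values under 1e-06 were set to 0, in 170 genes. Depth is unknown: no ratio of S1 to S2, taken to 4 decimals, was common to more than 2 of the 1105 genes with values between 0 and 0.15 FPKM, so read counts could not be worked back.

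The 17949 genes above 0 in at least 1 library were tested with limma 3.58.1 (R 4.3.3) on log2(FPKM + 1) against 1 FPKM, with an intercept only, a trended eBayes and Benjamini-Hochberg adjustment, two-sided, at 0.05. Fold differences of low genes are understated on this scale. The fit was run on simulated data with independent normal noise, with calls checked only for genes set at 0.5 to 2 FPKM. Genes near 0 and libraries that are technical repeats were not covered. Pairs of the 7 genes were compared within each library by an exact sign-flip permutation test over 21 pairs. All 7 genes, the 4 highest and 2 lowest of each other Hedgehog list, marker genes from the 2 highest and 2 lowest of a cell type list, and the 2 nearest genes by profile were named. The members and lists were chosen with earlier results of these data known. The comparison of S3 with S1 and S2 was chosen after the values were seen. Alternatives were a pseudocount of 0.1, a mean of at least 0.5 FPKM, levels of 0.5 and 2 FPKM, other scalings, eBayes without a trend and leaving out each library. Some listed genes are not reported here and were left out of the lists. Of the 129 listed genes kept, 121 were measured.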

Additional observations from a re-analysis of the deposited data

How the results depend on the processing

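No paired analysis was possible because the libraries form 1 group. Upper-quartile scaling, marker sums without CLU, CYP11A1 or TAGLN and the values relative to the median of all genes were chosen after the data were seen. The levels of DHH, PTCH1, SMO, SUFU and GLI3 kept their side of 1 FPKM and their call under every alternative in which they were tested, and those of GLI1 and GLI2 did so apart from the cases given here. At a level of 2 FPKM, GLI1 was not told apart from the level (log2 difference 0.047), GLI2 lay below it (-0.35) and the 7 genes had 2 below. Leaving out each library moved GLI2 between 0.17 and 0.28 against 1 FPKM, and SUFU minus SMO between -0.011 and 0.12, turning its sign without S2. With only genes averaging 0.5 FPKM or more, fewer low genes were tested: 798 of all genes, 2 of the other Hedgehog genes and 0 of the 7 were below 1 FPKM. Without mitochondrial and ribosomal protein genes, the others being rescaled upwards, 3253 of all genes (5111 as deposited) and 3 of the other Hedgehog genes (7 as deposited) were below. SCUBE3, HHAT, EVC and ZIC2 then turned to 0.54, 0.26, 0.62 and 0.54 above the level on the log2 scale, and FUZ, AMH and FSHR were no longer told apart from it (-0.096, -0.074 and 0.28). Against 0.5 FPKM SCUBE3, HHAT, EVC and ZIC2 lay at 0.23, 0.048, 0.28 and 0.23, FSHR at 0.057, and 4 of the other Hedgehog genes were below. The difference of S3 from S1 and S2 changed with that removal to -0.050 for DHH, 0.13 for PTCH1, -0.30 for SUFU and -0.41 for GLI1, and turned to -0.13 for SMO and -0.035 for GLI3. After rescaling to 1000000 it was 0.17 for SMO and turned to 0.022 for SUFU. Relative to the median of all genes it was -0.070 for DHH. What depth does to low values such as those of DHH was not tested, since the table gives no counts.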
